A study of Mus musculus with 32 samples.

Results

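The oculomotor nucleus (CN3) and the abducens nucleus (CN6) hold the motor neurons that move the eye, the first in the midbrain and the second in the hindbrain. RNA from samples labelled as oculomotor neurons was compared with RNA from samples labelled as abducens motor neurons, in pigmented C57BL/6 mice only, with 4 libraries against 4. They were chosen by label, and they make up 8 of the 32 libraries of a series on nystagmus, an involuntary oscillation of the eyes, in an albino strain. The other 24 libraries, from albino mice or from eye and limb muscle, entered no fit.

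Both groups carry the C57BL/6 genotype, with no transgene and no treatment in the labels. The labels give no age, sex, collection time or dissection method, and they name either of 2 RNA kits for all samples. They do not say that replicates came from separate mice, so p-values measure the spread between these samples, which may be technical. The tissue names say neurons, but the libraries are bulk RNA, in which fewer cells of a type and less RNA per cell cannot be told apart.

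Position along the developing brain is recorded by transcription factors that many neurons keep expressing. Otx2 marks the forebrain and midbrain, whereas Hox genes are switched on from the hindbrain backwards, each paralog group with its own front border. Motor neurons of either nucleus share another set of genes. They make acetylcholine with Chat, load it into vesicles with Slc18a3 and take choline back up with Slc5a7, and they are rich in neurofilaments and peripherin. Oculomotor neurons depend on the transcription factor Phox2a during their formation.

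The 8 libraries held 30694749 to 44254021 counts, with 18055 to 18507 genes detected, so that 1 CPM (counts per 1000000 counts of the library) stood for 30.7 to 44.3 counts. The first principal component, with 56.2% of the variance, put all CN3 libraries on one side and all CN6 libraries on the other. CN3 replicate 1 stood apart on the second component (12.1%), at 36.8 against −14.7 to 16.1 in the other 7. In each library 76% to 78.3% of the counts from 1 to 20 were even numbers, so low counts came largely in pairs. The floor used here for a group without counts is therefore 3 pairs, or 6 counts, over the 4 libraries. Floors and counting intervals cover counting error only.

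CN3 and CN6 differed widely. Of 16004 genes tested with edgeR's quasi-likelihood test, 4231 (26.4%) were called at a Benjamini-Hochberg adjusted p under 0.05. Of these, 2081 (13.0% of those tested) were higher in CN3 and 2150 (13.4%) were higher in CN6. The difference was at least 2-fold for 653 genes (4.08%), 278 higher in CN3 and 375 higher in CN6. It was at least 4-fold for 77 and 126 genes. The 4 libraries of one group lay wholly above those of the other for 3673 of the called genes. Leaving out CN6 replicate 4 lowered the count of called genes to 2819.

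The markers of position separated the groups completely, and so did the markers of motor neurons, in which CN3 was nearly empty. Log2 fold changes below are CN3 relative to CN6, with the standard error, and a negative value means higher in CN6. Hoxb3, a hindbrain Hox gene (chromosome 11, 96323326 to 96347930, plus strand, mm10), read 0.0652, 0.271, 0.0530 and 0.176 CPM in CN3 replicates 1 to 4. In CN6 it read 23, 28.4, 31.4 and 23.5 CPM. The log2 fold change was −7.48 ± 0.27 (adjusted p = 1.9e-07, edgeR). Otx2 (chromosome 14, 48657677 to 48673819, minus strand) ran the other way, with 15.3, 9.45, 26.4 and 19.6 CPM in CN3 and 1.15, 1.30, 0.575 and 0.402 CPM in CN6. Its log2 fold change was 4.33 ± 0.42 (adjusted p = 0.000196, edgeR). All 4 CN3 libraries thus carried Otx2, a gene of forebrain and midbrain, and nearly lacked the hindbrain gene.

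Chat (chromosome 14, 32408203 to 32465989, minus strand) read 0.717, 0.452, 0.212 and 0.353 CPM in CN3, which came from 22, 20, 8 and 12 counts. In CN6 it read 15.1, 17.9, 9.39 and 20.5 CPM. The log2 fold change was −5.24 ± 0.34 (adjusted p = 1.2e-05, edgeR). Every CN3 library fell below every CN6 library, although both nuclei are made of cholinergic motor neurons. Of the markers, Hoxb3 and Otx2 ran in the direction of the labels, with CN6 in the hindbrain and CN3 in the midbrain. They do not place the tissue within these regions, and Otx2 marks the forebrain too. The motor neuron transcripts that the label of CN3 calls for were close to absent.

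**Figure D1:**
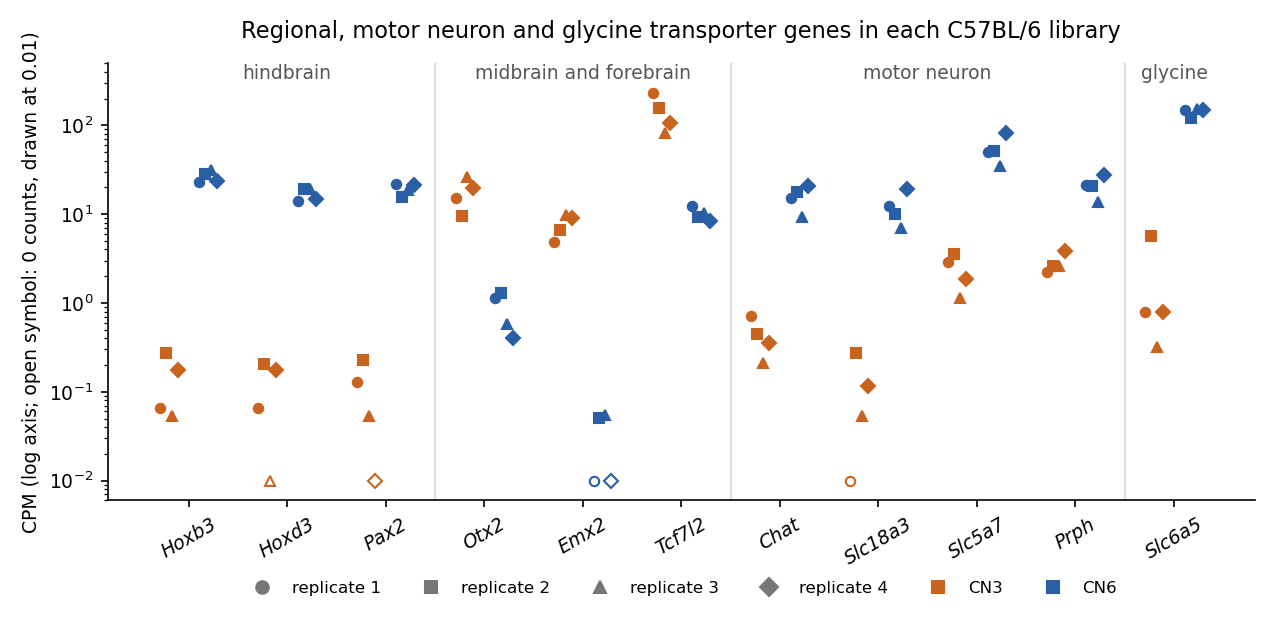
Level (CPM, log axis) of 11 genes in each of the 8 C57BL/6 libraries, with CN3 in orange, CN6 in blue and 1 symbol per replicate number. Hindbrain, motor neuron and glycine transporter genes sit high in CN6 and Otx2, Emx2 and Tcf7l2 high in CN3, with no overlap for any of the 11.

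The Hox genes gave the clearest regional difference. All 39 genes of the 4 mouse clusters are in the table, and together they drew 186 counts in the CN3 libraries and 16725 in the CN6 libraries. Of the 15 genes of paralog groups 1 to 5, 14 passed the filter on low counts, and all 14 were called higher in CN6, with a median log2 fold change of −7.17 (−0.0044 over all genes tested). They passed because they are high in CN6, so this count describes them and supports nothing. No CN3 library held more than 0.452 CPM of any of them. The remaining gene of these groups, Hoxb1, and the 24 genes of groups 6 to 13 stayed too low to test in both groups. The highest of these was Hoxb6, with 1.17 CPM in CN6 replicate 2, and 12 Hox genes had no count in any of the 8 libraries.

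Paralog groups 2 and 3, which act in the front part of the Hox-expressing hindbrain, were read at similar levels in the 4 CN6 libraries. Hoxa2 read 5.37, 7.37, 6.90 and 6.93 CPM in CN6 and 0, 0.0452, 0.0530 and 0 CPM in CN3. Its CN3 value rests on 4 counts, for a pooled ratio of CN6 to CN3 of 246 (67.7 to 2035) with an exact 95% interval on pairs of counts. Hoxb2 read 5.79, 6.88, 8.92 and 5.77 CPM in CN6 and had 2 counts in CN3, all in replicate 2, for a ratio of 503 (90 to 19924). Hoxa3 read 5.18, 4, 5.01 and 3.89 CPM in CN6, again with 2 counts in CN3 and a ratio of 328 (58.4 to 12980.0). Hoxd3 read 14, 19, 19.1 and 14.9 CPM in CN6 and 0.0652, 0.203, 0 and 0.176 CPM in CN3, a log2 fold change of −7.18 ± 0.35 (adjusted p = 1.17e-06, edgeR). For all 4 genes, the lowest CN6 library lay far above the highest CN3 library.

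Groups 4 and 5, whose front borders lie further back in the hindbrain, were also far higher in CN6. Hoxa4 read 8.22, 10.3, 10.2 and 7.31 CPM, Hoxc4 7.39, 14.2, 11.5 and 6.88 CPM and Hoxd4 3.10, 4.46, 4.98 and 3.84 CPM in CN6 replicates 1 to 4. Hoxb4 read 2.69, 6.86, 4.08 and 1.48 CPM. Among group 5 genes, Hoxa5 read 3.39, 16.3, 6.60 and 1.53 CPM, Hoxb5 5.09, 24.6, 9.03 and 1.76 CPM and Hoxc5 1.86, 5.40, 3.39 and 1.33 CPM. CN6 replicate 2 was the highest and replicate 4 the lowest for Hoxb4 and for each of the 3 group 5 genes. All 7 were called higher in CN6 (log2 fold changes from −7.96 to −6.05), but Hoxa5 and Hoxb5 were not called by limma voom (adjusted p = 0.0936 and 0.138). Hoxd1, of group 1, was low in both groups, at 0.544 to 1.07 CPM in CN6 and 0 to 0.353 CPM in CN3. It was not called without CN6 replicate 4 (adjusted p = 0.0519).

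Per kilobase of exon, the mean CN6 levels of 8 genes of groups 2 to 4 were 6.25 CPM for Hoxb3, 5.66 for Hoxa4, 4 for Hoxd3, 3.89 for Hoxc4, 3.74 for Hoxa2, 1.96 for Hoxb2, 1.39 for Hoxd4 and 0.752 for Hoxa3. These levels depend on the exon length in GENCODE and on overlapping genes. An antisense gene, Hoxb3os, shares 52.9% of the exon bases of Hoxb3, and a readthrough model shares 53.1% of those of Hoxd3. The strand setting of the counting is not given in the sources used here, so reads of such pairs cannot be told apart.

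**Figure D2:**
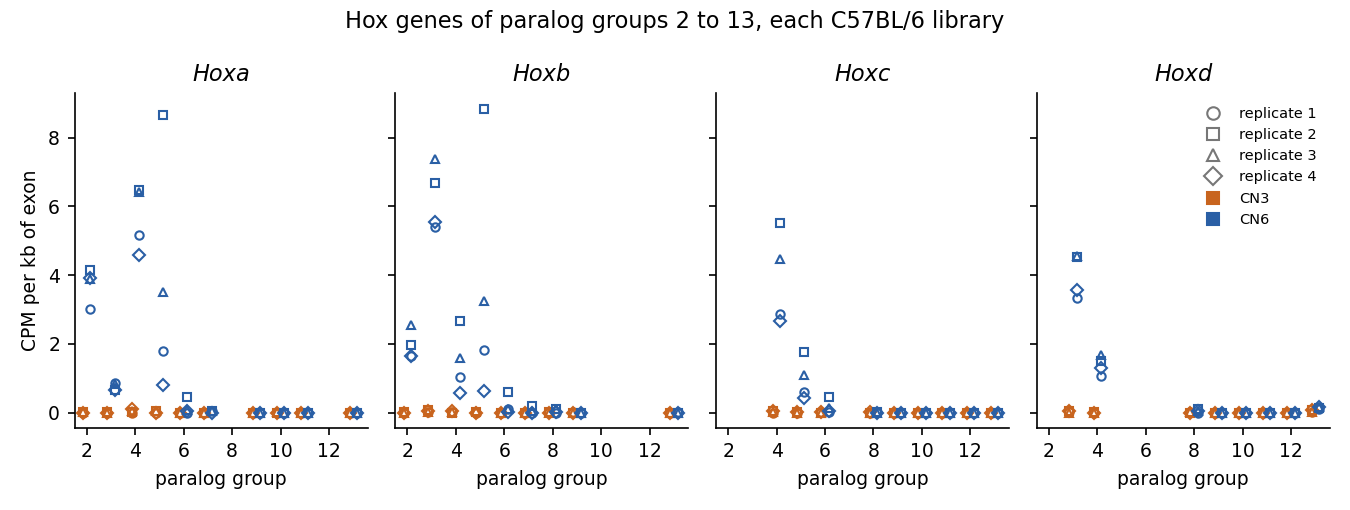
Level per kilobase of exon (CPM) of Hox genes of paralog groups 2 to 13 against paralog group, in 1 panel for each of the 4 clusters, 1 symbol per library, CN3 in orange and CN6 in blue. Signal appears in CN6 from group 2 to group 5, CN6 replicate 2 (square) stands highest in Hoxa5 and Hoxb5, and the CN3 symbols lie along 0.

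Promoter sequences of 8 of the 14 called Hox genes are in the RefSeq table used here (GRCm38.p6, 250 bases before to 50 after each start). They were searched on both strands for TGATNNAT, a composite site that PBX and HOX proteins bind together. It occurred in 1 of these 8 windows, that of Hoxa2, and in 4.47% of the windows of all tested genes. The 250 bases before the starts of Hoxa2 and Hoxd4 are shown because both genes go from a few counts in CN3 to every CN6 library, with the match in capitals. They lie at chr6:52164832-52165081 (minus strand) and chr2:74721728-74721977 (plus strand), and no match in Hoxd4 says only that these letters are not in this window.
Hoxa2: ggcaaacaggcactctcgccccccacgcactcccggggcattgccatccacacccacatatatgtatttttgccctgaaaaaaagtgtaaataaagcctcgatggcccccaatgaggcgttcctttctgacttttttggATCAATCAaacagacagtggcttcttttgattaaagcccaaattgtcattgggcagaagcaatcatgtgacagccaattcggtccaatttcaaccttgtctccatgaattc
Hoxd4: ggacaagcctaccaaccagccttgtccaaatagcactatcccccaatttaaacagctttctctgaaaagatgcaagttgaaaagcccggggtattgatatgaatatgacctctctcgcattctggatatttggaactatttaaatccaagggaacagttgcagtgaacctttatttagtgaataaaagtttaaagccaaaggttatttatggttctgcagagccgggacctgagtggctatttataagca

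HOX proteins bind DNA with partners that include the MEIS and PKNOX families, and these partners did not all move with the Hox genes. Of 9 cofactor genes tested, 3 were higher in CN6, 3 were higher in CN3 and 3 were not called (26.4% of all tested genes were called). Meis1 read 42.4, 45.3, 41.1 and 36.1 CPM in CN6 and 10.4, 10.8, 12.2 and 13.2 CPM in CN3 (log2 fold change −1.87 ± 0.092, adjusted p = 7.9e-07, edgeR). Meis2 was the most abundant in CN6, at 192 to 205 CPM, against 47, 49.8, 102 and 98.8 CPM in CN3, where replicates 3 and 4 were about as high as each other and above replicates 1 and 2. Pknox1 was also higher in CN6 (−0.58 ± 0.11). Pknox2 was higher in CN3, with 35.7, 28.6, 39.2 and 33 CPM against 21.5, 25.2, 21.2 and 18.8 CPM (log2 fold change 0.61 ± 0.11, adjusted p = 0.00163, edgeR).

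Genes of the border between midbrain and hindbrain and of the hindbrain itself divided. Pax2, a paired-box factor that adult hindbrain interneurons also express, read 21.6, 15.8, 18.6 and 21.1 CPM in CN6 and 0.130, 0.226, 0.0530 and 0 CPM in CN3 (log2 fold change −7.47 ± 0.35, adjusted p = 1.17e-06, edgeR). Its relative Pax8 read 19, 18.9, 18.7 and 19.4 CPM in CN6 and 0, 0.701, 0 and 0.118 CPM in CN3. Lbx1, a factor of dorsal hindbrain and spinal interneurons, had 4 counts in all of CN3 and 0.876 to 2.28 CPM in CN6, a pooled ratio of 51.2 (13.7 to 426). Lbx1 passed the filter through CN6 alone. Of the 7 tested hindbrain factors in its list, 3 were higher in CN6 and 2 in CN3 (13.4% and 13.0% of all tested genes). Those higher in CN3 were Barhl2, given below, and Barhl1, at 4.02 to 14.0 against 1.44 to 2.32 CPM. En2, made on both sides of the border, was higher in CN3 (2.96 to 6.49 against 2.03 to 2.56 CPM), while En1 was not called (0.941 to 2.15 against 2.12 to 3.20 CPM, adjusted p = 0.101, edgeR).

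Retinoic acid, which sets the front borders of Hox genes in the embryo, is made, bound and degraded by proteins of which 17 genes were tested. Of these, 3 were higher in CN6 and 3 in CN3, with a median log2 fold change of −0.038, a share of 35.3% called beside 26.4% of all tested genes. Crabp1, which binds retinoic acid in the cytoplasm, read 2.17, 2.78, 4.22 and 2.23 CPM in CN6 and 0.326, 0.271, 0.212 and 0.588 CPM in CN3 (log2 fold change −3.08 ± 0.34, adjusted p = 0.000113, edgeR). Cyp26b1, which degrades retinoic acid, read 61.3, 49.8, 53.8 and 56.2 CPM in CN6 and 1.37, 3.37, 8.85 and 9.26 CPM in CN3 and was named after its values were seen. Dhrs3, which reduces retinal, was higher in CN3 (12.6 to 21 against 4.48 to 6.75 CPM), as was the receptor gene Rxrg (4.95 to 7.39 against 1.81 to 3.13 CPM).

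CN3 carried the transcription factors of the midbrain and of the forebrain next to it. Of 18 such genes 14 passed the filter. Of these, 12 were called higher in CN3 and none higher in CN6, against 13.0% and 13.4% of all tested genes. The median log2 fold change was 4.23 (−0.0044 over all genes tested). Some of these 12, such as Emx2, passed through CN3 alone, so the count is a description. Emx2 read 4.85, 6.67, 9.75 and 9.11 CPM in CN3 and had 4 counts in CN6, a pooled ratio of CN3 to CN6 of 281 (77.4 to 2324). Its antisense neighbour Emx2os, which shares 264 exon bases with it, ran alongside at 4.69, 8.07, 7.39 and 9.03 CPM. Pax7, a factor of the dorsal midbrain, read 11.1, 4.23, 31.5 and 16.2 CPM in CN3 and at most 0.561 CPM in CN6. The gap between the groups was wide for each of these genes, but the CN3 libraries were ordered differently from gene to gene.

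Factors of the thalamus and pretectum, which lie in front of the midbrain, were among them. Tcf7l2, the most abundant, read 232, 156, 81.1 and 106 CPM in CN3 and 12.2, 9.23, 10.2 and 8.44 CPM in CN6 (log2 fold change 3.81 ± 0.37, adjusted p = 0.000473, edgeR). Lhx9 read 33.7, 28.7, 50 and 48.8 CPM in CN3 and 1.86, 2.88, 2.41 and 1.78 CPM in CN6 (4.12 ± 0.22, adjusted p = 3.74e-06, edgeR). Sox14, of GABA neurons in this region, read 5.02, 4.14, 9.65 and 6.47 CPM in CN3 and 0.0640 to 0.331 CPM in CN6. Six3, a forebrain factor, varied from 1.06 to 22.3 CPM among the CN3 libraries, with replicate 2 the highest and replicate 3 the lowest. Otx1, Lhx2, Lef1 and Pou4f1, the last a marker of red nucleus and habenula neurons, were also higher in CN3 (log2 fold changes 4.57 ± 0.69, 3.07 ± 0.29, 2.00 ± 0.44 and 2.78 ± 0.41). Lef1 was not called without CN6 replicate 4 (adjusted p = 0.0537).

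The 2 members that were not called are also midbrain genes. Dmbx1 read 3.78, 0.859, 11 and 5.70 CPM in CN3 and 6.17, 8.36, 10.3 and 11.9 CPM in CN6 (log2 fold change −0.84 ± 0.63, adjusted p = 0.373, edgeR). Nr4a2, needed by dopamine neurons, read 12.4, 8.45, 0.901 and 3.38 CPM in CN3 and 6.24, 7.85, 6.63 and 7.86 CPM in CN6 (−0.22 ± 0.65, adjusted p = 0.838, edgeR). The CN3 libraries of Nr4a2 lay on both sides of the CN6 libraries, and 3 of the 4 CN3 libraries of Dmbx1 lay below all of CN6.

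The 12 genes with the largest difference in favour of CN3 were nearly all developmental regulators. Among them were Emx2, Nr2e1, Emx2os, Six3, Six3os1, Slc6a3, Tfap2d, Pax7, Bhlhe23, Sox14 and Barhl2, and 11 of the 12 encode transcription factors or lie antisense to one. Nr2e1, a nuclear receptor of neural stem cells and astrocytes, read 7.88, 5.65, 8.80 and 7.76 CPM in CN3 and 0.0640, 0.102, 0 and 0 CPM in CN6. Tfap2d, a factor of the dorsal midbrain, read 5.18, 4.52, 7.87 and 6.41 CPM against 0 to 0.102 CPM. Barhl2 read 5.64, 3.98, 14.8 and 11.2 CPM against 0.201 to 0.612 CPM. The corresponding 12 for CN6 held Pax2 and 10 Hox genes, which were Hoxb2, Hoxa3, Hoxd4, Hoxb5, Hoxa2, Hoxb3, Hoxd3, Hoxc4, Hoxa4 and Hoxa5.

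The RefSeq window of the first Otx2 start is shown because the check of the CN3 label rests on Otx2, a forebrain and midbrain marker. The 250 bases before that start lie at chr14:48667645-48667894 (minus strand). TAATCC, the core site of OTX proteins, was searched on both strands. It was in 2 of 18 windows of the 10 called midbrain and forebrain factors with an entry, in 5.73% of the windows of all tested genes, and not in the window shown. One of those 2 windows is that of another Otx2 start (chr14:48665060-48665359, minus strand).
Otx2: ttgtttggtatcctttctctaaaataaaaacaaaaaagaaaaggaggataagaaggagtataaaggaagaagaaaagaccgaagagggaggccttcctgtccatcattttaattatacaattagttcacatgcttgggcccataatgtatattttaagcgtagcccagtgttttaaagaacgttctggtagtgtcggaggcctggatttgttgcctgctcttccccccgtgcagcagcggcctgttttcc

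In the 3 lists of cholinergic genes, motor neuron factors and motor neuron structural and peptide genes, the members called were all higher in CN6. Of the 5 cholinergic genes tested, 4 were higher in CN6, against 13.4% of all tested genes. The median log2 fold change over the list was −4.56. Some of these 4, such as Slc18a3, passed the filter through CN6 alone, so the count is a description. Slc18a3, the vesicular acetylcholine transporter (chromosome 14, 32462438 to 32464850, minus strand), lies inside the span of Chat on the same strand without sharing exon bases. It read 0, 0.271, 0.0530 and 0.118 CPM in CN3 and 12.3, 10, 6.90 and 19.2 CPM in CN6 (log2 fold change −6.65 ± 0.56, adjusted p = 7.49e-05, edgeR). Slc5a7, the choline transporter, read 2.87, 3.55, 1.14 and 1.88 CPM in CN3 and 50.5, 51.9, 34.5 and 81.2 CPM in CN6 (−4.56 ± 0.40, adjusted p = 0.000251, edgeR). CN6 replicate 4 was the highest and replicate 3 the lowest CN6 library for Chat, Slc18a3 and Slc5a7 alike.

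Other members of the list, which are not limited to cholinergic cells, differed less. Ache, which breaks acetylcholine down, read 197, 192, 195 and 182 CPM in CN3 and 264, 227, 245 and 249.6 CPM in CN6, a log2 fold change of only −0.41 ± 0.064 (adjusted p = 0.000987, edgeR). Slc10a4, a vesicular protein of cholinergic and monoamine neurons, read 8.34, 4.25, 3.29 and 1.18 CPM in CN3 and 9.44, 11.6, 3.94 and 12.4 CPM in CN6 and was not called (−1.17 ± 0.57, adjusted p = 0.178, edgeR). It was called without CN3 replicate 1 (adjusted p = 0.0464).

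Chat and Slc18a3 form 1 locus, and the sequences before their starts are shown for that reason. For Chat, the 170 bases that lie before its first GENCODE exon are given (chr14:32465990-32466159, minus strand), and for Slc18a3 the 250 bases before the RefSeq start (chr14:32464851-32465100, minus strand). Neither holds TGATNNAT or TAATCC.
Chat: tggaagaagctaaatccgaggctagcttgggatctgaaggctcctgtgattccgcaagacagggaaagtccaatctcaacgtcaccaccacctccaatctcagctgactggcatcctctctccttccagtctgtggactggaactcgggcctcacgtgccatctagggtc
Slc18a3: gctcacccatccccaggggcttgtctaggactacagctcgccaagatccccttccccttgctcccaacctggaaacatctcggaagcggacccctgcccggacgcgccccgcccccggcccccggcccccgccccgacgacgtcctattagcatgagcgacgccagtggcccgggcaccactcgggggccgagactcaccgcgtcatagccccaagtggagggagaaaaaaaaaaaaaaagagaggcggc

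Transcription factors of cranial motor neurons were scarce in CN3. Of 8 tested, 7 were higher in CN6 and none in CN3, against 13.4% and 13.0% of all tested genes. Some of these 7, such as Phox2a and Tbx20, passed the filter through CN6 alone, so the count is a description. When genes needed at least 1 CPM in at least 4 libraries, 4 of the factors were called. Phox2a, the factor on which oculomotor neurons depend, had no count in any CN3 library and read 0.576, 0.816, 0.438 and 0.829 CPM in CN6. Against the floor of 6 counts over the group, that was at least 16.5-fold higher in CN6. Tbx20 had 4 counts in CN3, all in replicate 1, and read 1.28, 3.70, 0.931 and 2.46 CPM in CN6.

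Factors of somatic motor neurons were low in both groups. Whether each of them marks both nuclei was not tested, so a low level in CN3 does not by itself measure motor neurons. Mnx1 had 4 counts in CN6 and none in CN3, which is below the floor, and Isl2 was at or under 0.326 CPM in every library. Isl1 read 0.521, 0.181, 0.212 and 0.412 CPM in CN3 and 1.22, 0.663, 0.712 and 2.03 CPM in CN6 (−1.88 ± 0.46, adjusted p = 0.0117, edgeR). Lhx4 read 0.0530 to 0.261 CPM in CN3 and 1.18 to 2.27 CPM in CN6. Lhx3, which hindbrain interneurons also use, read 0.261 to 1.36 against 2.45 to 3.39 CPM, and Nkx6-1 read 0 to 0.586 against 2.19 to 3.01 CPM. Nkx6-2, which oligodendrocytes express too, was not called (−0.34 ± 0.20, adjusted p = 0.245, edgeR), but was without CN3 replicate 2 (adjusted p = 0.0327).

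Structural and peptide genes of motor neurons were higher in CN6 or not called. Of 21 tested, 14 were higher in CN6 and none in CN3, against 13.4% and 13.0% of all tested genes. Their median log2 fold change was −1.25. Prph, which encodes peripherin, an intermediate filament of neurons with peripheral axons, read 2.25, 2.58, 2.60 and 3.88 CPM in CN3 and 21.2, 21, 13.6 and 27.4 CPM in CN6 (−2.92 ± 0.23, adjusted p = 2.76e-05, edgeR). The peptide gene Uts2b had 2 counts in CN3 and read 1.22, 1.20, 1.18 and 1.61 CPM in CN6. Uts2b passed the filter through CN6 alone, so the count over the list is a description. The neurofilament genes, which all large neurons use, differed by less on the log2 scale and stayed high in both groups. Nefh read 349, 499.8, 381 and 397 CPM in CN3 and 1264, 1061, 1256 and 1359.5 CPM in CN6 (−1.64 ± 0.12, adjusted p = 1.74e-05, edgeR). Nefm and Nefl gave log2 fold changes of −1.28 ± 0.12 and −1.25 ± 0.11. Ecel1 and Tubb3, mutated in disorders of eye movement or joint contracture, were also higher in CN6 (−1.04 ± 0.13 and −0.50 ± 0.07).

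Peptides of the Edinger-Westphal nucleus, which adjoins the oculomotor nucleus, were present in CN3 at low levels. Cartpt read 9.35, 15.2, 23.8 and 33.7 CPM in CN3 and 6.65, 9.81, 5.09 and 5.37 CPM in CN6, with replicate 1 of CN3 below replicate 2 of CN6 (1.56 ± 0.40, adjusted p = 0.0235, edgeR). It was not called without CN3 replicate 3 or CN6 replicate 1, 3 or 4 (adjusted p = 0.0533 to 0.0734). Cck read 26.7, 18.6, 16.2 and 25.8 CPM in CN3 and 8.60, 12.3, 8.73 and 9.34 CPM in CN6 (1.12 ± 0.17, adjusted p = 0.0011, edgeR). Ucn, the defining peptide of that nucleus, was read in CN3 replicates 2 and 4 only, at 0.678 and 0.706 CPM, and reached 0.384 CPM in CN6.

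The regional and the motor neuron genes both separate CN3 from CN6, but among the CN6 libraries they did not run together. Chat, Slc18a3, Slc5a7 and Prph were all highest in CN6 replicate 4 and all lowest in replicate 3, with a median ratio of highest to lowest of 2.27. Of the 14 Hox genes, 8 were highest in CN6 replicate 2, 4 in replicate 3 and 1 each in replicates 1 and 4. Replicate 4 was the lowest CN6 library for 8 of the 14. Of all tested genes, 36.2% were highest in CN6 replicate 2, 27.8% in replicate 1, 19.3% in replicate 4 and 16.7% in replicate 3.

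The ratio of Hoxb3 to Chat within a library shows the same. It was 1.52, 1.59, 3.34 and 1.15 in CN6 replicates 1 to 4, highest where Chat was lowest. The ratio of Slc5a7 to Chat was 3.34, 2.90, 3.68 and 3.96, and that of Prph to Chat was 1.40, 1.17, 1.45 and 1.33, both narrower. In CN3 the ratio of Hoxb3 to Chat was 0.0909, 0.600, 0.250 and 0.500, below all 4 CN6 values, on 2 to 12 counts of Hoxb3. The groups did not overlap in this ratio, so Hoxb3 was lower in CN3 by more than Chat was. The ratios of Hoxb2, Hoxd3 and Pax2 to Chat did not overlap either. That of Hoxa4 did, at 0.5 in CN3 replicate 4 against 0.356 in CN6 replicate 4. So did that of the glycine transporter gene Slc6a5, at 12.45 in CN3 replicate 2 against 6.78 in CN6 replicate 2. The ratio of Slc18a3, a motor neuron gene, also overlapped, at 0.6 in CN3 replicate 2 against 0.56 in CN6 replicate 2. The ratio of Slc5a7 to Chat in CN3 was 4, 7.85, 5.38 and 5.33, above all 4 CN6 values.

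**Figure D3:**
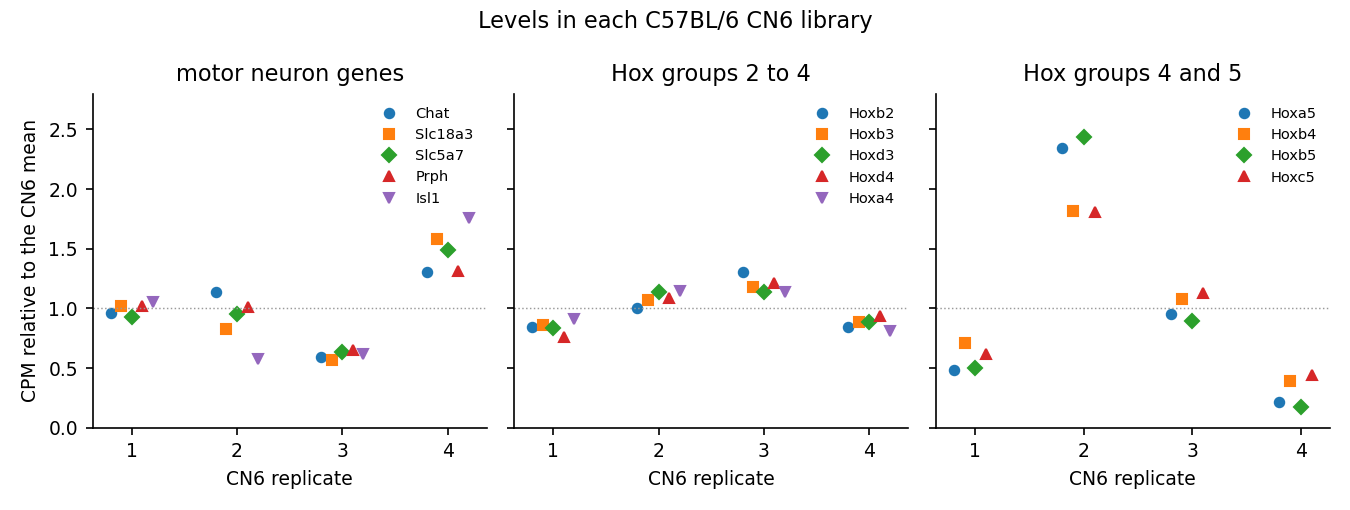
Level in each CN6 library relative to the mean of the 4 (linear axis, dotted line at 1), for 5 motor neuron genes, 5 Hox genes of groups 2 to 4, and 4 Hox genes of groups 4 and 5. The motor neuron genes peak in replicate 4 and the group 5 genes in replicate 2, while the 5 Hox genes of groups 2 to 4 lie closer to 1 than the group 5 genes.

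A fit with the motor neuron transcript level as a covariate could not keep region and motor neuron transcripts apart across groups. That level, the mean log2 CPM of Chat, Slc18a3, Slc5a7 and Prph, ran from −0.89 to 0.16 in CN3 and from 3.77 to 4.97 in CN6, with no library between. With it in the model 1 of 16004 genes was called and 400 had an unadjusted p under 0.05, so group and motor neuron level largely cannot be told apart with these 8 libraries. Hoxb3 was not called in that fit (log2 fold change −8.33 ± 1.21, adjusted p = 0.313, edgeR). Without the covariate its adjusted p was at most 2.11e-05 in 15 alternatives. Hoxb2 at −10.71 ± 1.72, Hoxd3 at −7.58 ± 1.67 and Pax2 at −6.17 ± 1.55 were not called either. Chat moved to −1.11 ± 1.27 and Slc18a3 to −0.18 ± 1.33, which follows from their part in the covariate. The estimates for Otx2 and Emx2 were −0.20 ± 2.05 and 5.66 ± 2.08, each with a wide error and not called.

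The gene called in that fit was Tph2, the enzyme that makes serotonin in the brain, at −10.19 ± 1.04 (adjusted p = 0.0128, edgeR). It read 1.11, 0.859, 3.23 and 1.09 CPM in CN3 and 8, 8.41, 17.1 and 5.30 CPM in CN6, with CN6 replicate 3, the lowest for Chat, the highest. Without the covariate its log2 fold change was −2.67 ± 0.51 (adjusted p = 0.00659, edgeR), and its adjusted p over the 15 other alternatives ran from 2.93e-05 to 0.0542.

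**Figure D4:**
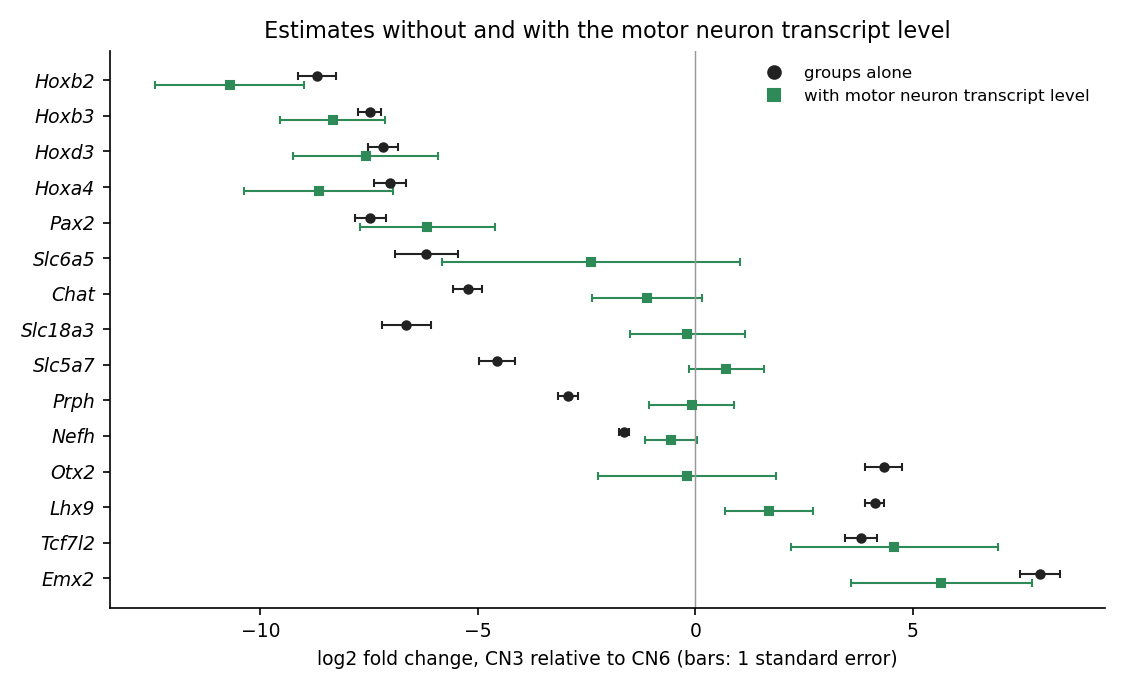
Log2 fold change of CN3 relative to CN6 (bars, 1 standard error) for 15 genes, from the groups alone (black circles) and with the motor neuron transcript level in the model (green squares). The errors are wider for all 15 genes with that level in the model, where none of them is called, and Chat, Slc18a3, Slc5a7 and Prph form the level itself.

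Neurons that use other transmitters also differed between the regions. The 8 glycine genes were all called, 5 higher in CN6 and 3 in CN3 (26.4% of all tested genes were called). Slc6a5, the transporter by which glycine neurons are recognised, read 149, 121, 153 and 149.6 CPM in CN6 and 0.782, 5.63, 0.318 and 0.794 CPM in CN3, where replicate 2 was the highest (−6.18 ± 0.73, adjusted p = 0.00155, edgeR). Glrb and the glial transporter gene Slc6a9 were higher in CN6 by smaller amounts (−0.52 ± 0.085 and −0.45 ± 0.083). The receptor genes Glra2 and Glra3 were higher in CN3 (0.71 ± 0.11 and 1.45 ± 0.19). The transporter was far lower in every CN3 library, while the receptor subunits were read in all 8.

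Of 18 GABA genes tested, 8 were higher in CN3, 3 were higher in CN6 and 7 were not called (13.0% and 13.4% of all tested genes were higher in CN3 and CN6). Gad1, which makes GABA, read 599, 677, 553 and 510.4 CPM in CN3 and 292, 371, 369 and 366 CPM in CN6 (0.70 ± 0.11, adjusted p = 0.000853, edgeR). Of 16 glutamate genes, 8 were higher in CN3 and 3 in CN6. Slc17a6, the main vesicular glutamate transporter of the brainstem, was higher in CN3 (396 to 501 against 326 to 368 CPM). Slc17a8 was higher in CN6 (4.16 to 7.54 against 0.949 to 1.43 CPM).

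Slc17a7, a vesicular glutamate transporter, set CN3 replicate 1 apart. It read 54, 4.70, 3.44 and 3.56 CPM in CN3 and 58.3, 74.9, 64.1 and 40 CPM in CN6 and was not called with all libraries (−1.91 ± 1.02, adjusted p = 0.226, edgeR). Without CN3 replicate 1 it was called (log2 fold change −3.94, adjusted p = 2.46e-05). Prkcd, a gene of thalamic relay neurons named after its values were seen, read 298, 11, 14.4 and 12.9 CPM in CN3 and 16.1 to 20.5 CPM in CN6. It was not called with all libraries (2.21 ± 1.29, adjusted p = 0.263, edgeR), and without CN3 replicate 1 it was called higher in CN6 (log2 fold change −0.50, adjusted p = 0.00988). The summed level of the 8 thalamus genes was 481 to 1173 CPM in CN3 and 411 to 467 CPM in CN6, and their part in the CN3 differences was not tested. Without CN3 replicate 1 the number of called genes was 4153, close to that with it.

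Among genes of monoamine neurons, 3 of 8 dopamine genes tested were higher in CN3 and 5 were not called. Of 6 noradrenaline genes 4 were higher in CN6, and of 8 serotonin genes 1 was, or 12.5% called beside 26.4% of all tested genes. The noradrenaline count includes Phox2a, which passed the filter through CN6 alone. Slc6a3, the dopamine transporter of the ventral midbrain, read 105, 45.4, 28.4 and 2.29 CPM in CN3 and 0.320, 0.561, 0.548 and 0.201 CPM in CN6 (6.74 ± 1.36, adjusted p = 0.0142, edgeR). The CN3 libraries spanned a wide range, and the gene was not called without CN6 replicate 4 (adjusted p = 0.0527) or by limma voom (adjusted p = 0.197). Th, which makes the dopamine precursor, read 46.3, 22.5, 11.5 and 4.97 CPM in CN3 and 7.58, 10.7, 4.46 and 5.55 CPM in CN6 and was not called (1.56 ± 0.69, adjusted p = 0.146, edgeR), although it was without CN3 replicate 4 (adjusted p = 0.0423). Dbh and Slc6a2, of noradrenaline neurons, were higher in CN6, Dbh at 12.3, 24.4, 4.05 and 7.61 against 0.226 to 0.742 CPM and Slc6a2 at 9.24, 18.8, 3.91 and 9.21 against 0.0652 to 0.412 CPM, though limma voom called neither (adjusted p = 0.0851 and 0.0556). The serotonin transporter gene Slc6a4 was not called (0 to 2.44 against 2.33 to 8.98 CPM, adjusted p = 0.101, edgeR), but was without CN3 replicate 3 (adjusted p = 0.0277).

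Of 22 neuropeptide genes tested, 7 were higher in CN6 and 3 in CN3, or 45.5% called beside 26.4% of all tested genes. Crh, the stress peptide, read 5.79, 8.82, 8.57 and 6.85 CPM in CN6 and 0.912, 1.33, 0.477 and 1.23 CPM in CN3 (−2.95 ± 0.27, adjusted p = 3.83e-05, edgeR), and Sst was higher in CN6 too (−0.90 ± 0.15). Tac1, which encodes substance P, was higher in CN3 (45.7, 44.6, 57.9 and 71.2 against 18.6, 18.9, 15.6 and 15.8 CPM, 1.63 ± 0.14, adjusted p = 3.15e-05, edgeR).

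Of 21 genes for fast, sustained firing, 11 were higher in CN6 and 5 in CN3 (13.4% and 13.0% of all tested genes), a difference between directions that was not tested. Pvalb, a calcium buffer, read 207, 243, 230.2 and 228 CPM in CN6 and 90.8, 131, 79.2 and 102 CPM in CN3 (−1.21 ± 0.14, adjusted p = 0.000299, edgeR). The channel genes Kcna1 and Scn4b were higher in CN6 (−0.91 ± 0.14 and −0.90 ± 0.13). Camk2a, a kinase of forebrain excitatory neurons, was higher in CN3 (362, 241, 339.8 and 289 against 86.7, 96.9, 64.7 and 64 CPM, 1.94 ± 0.17, adjusted p = 7.6e-05, edgeR).

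**Figure D5:**
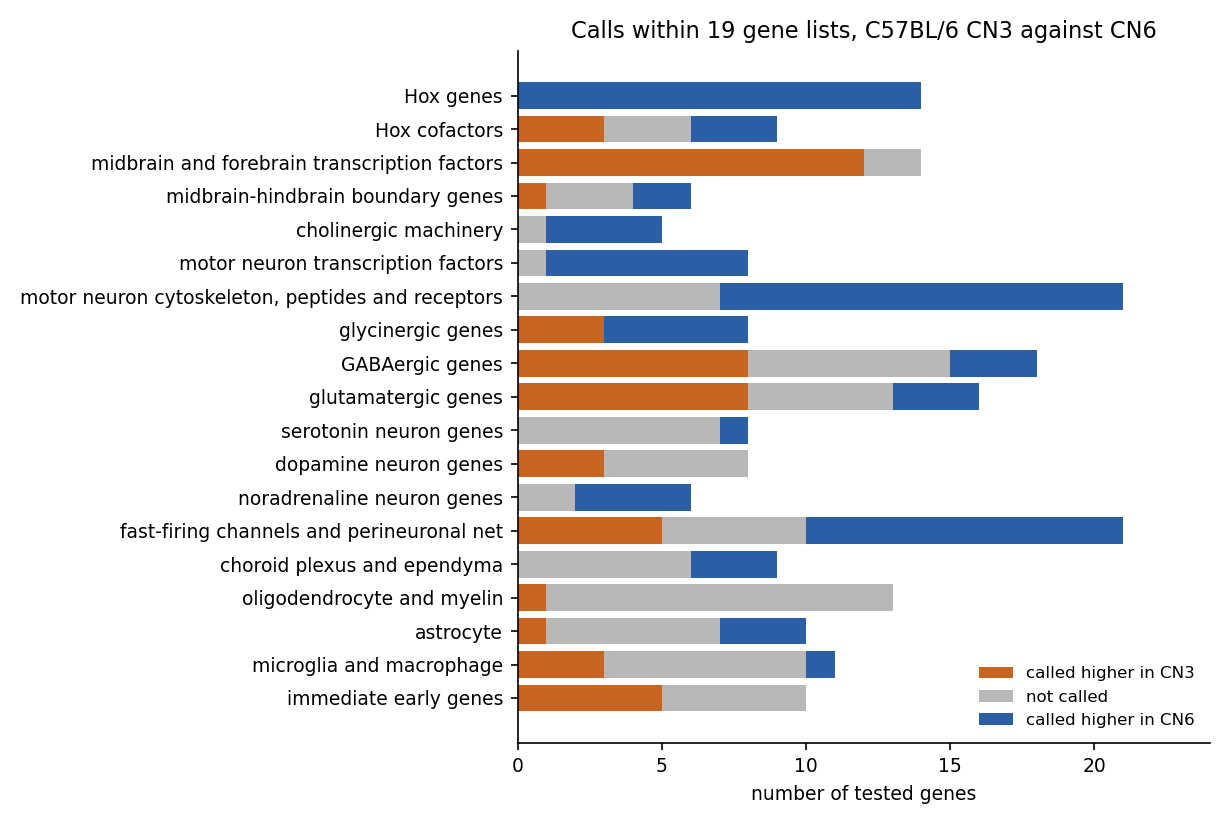
Number of tested genes in 19 lists that were called higher in CN3 (orange), called higher in CN6 (blue) or not called (grey). Hox and motor neuron lists are blue, midbrain and forebrain factors orange, and of 13 oligodendrocyte genes 12 were not called.

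Genes of glia and immune cells were called at shares that differed between the lists. Of 13 oligodendrocyte and myelin genes 1 was called, higher in CN3, and their summed level was 10672 to 18343 CPM in CN3 and 13982 to 16955 CPM in CN6. Of 10 astrocyte genes, 3 were higher in CN6 and 1 in CN3, among them S100b (476 to 534 against 215 to 331 CPM) and Aqp4 (289 to 399 against 177 to 245 CPM). Of 11 microglia genes 3 were higher in CN3 and 1 in CN6. These small counts moved with single libraries. The myelin count was 0 without CN3 replicate 1 or 4 or CN6 replicate 3 or 4 and 5 without CN3 replicate 2, the astrocyte count 2 without CN3 replicate 4 or CN6 replicate 1 or 3, and the microglia count 1 without CN6 replicate 2, 3 or 4. With all libraries, the share called was 7.69% of the oligodendrocyte and myelin list. It was 40% of the astrocyte list and 36.4% of the microglia list, beside 26.4% of all tested genes.

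Genes of the choroid plexus, ependyma and pituitary varied by library. Ttr, the thyroid hormone carrier that choroid plexus secretes, read 174, 98.9, 44.3 and 19.4 CPM in CN6 and 3, 5.94, 4.72 and 2.65 CPM in CN3 (−4.38 ± 0.79, adjusted p = 0.00898, edgeR), but was not called by limma voom (adjusted p = 0.141). Foxj1, of ciliated ependymal cells, was also higher in CN6 (26.1 to 31.7 against 15.2 to 21.5 CPM). The choroid plexus and ependyma list summed to 59.9 to 231.5 CPM in CN6 and 30.5 to 54.2 CPM in CN3, and its part in other results was not tested. The pituitary hormone gene Gh read 5.02, 362, 119.6 and 37.3 CPM in CN3 and 7.90, 279.9, 11.7 and 6.75 CPM in CN6, and Prl read 0.912, 78.1, 29.1 and 4.59 and 0.640, 59.4, 1.97 and 1.61 CPM. Replicate 2 was the highest in both groups for both hormones, and neither was called (adjusted p = 0.778 and 0.769, edgeR). The 8 skeletal muscle genes summed to at most 16.6 CPM in any library.

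Of 10 immediate early genes, which respond to activity within minutes, 5 were higher in CN3 (13.0% of all tested genes) and none in CN6, and 3 were called without CN6 replicate 4. Egr1 read 59.5, 63.5, 55 and 69 CPM in CN3 and 29.4, 27.9, 18.1 and 19.1 CPM in CN6 (1.35 ± 0.15, adjusted p = 0.000247, edgeR), and Nr4a1 was higher by 0.96 ± 0.14.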

How the data were processed

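The authors deposited 1 table of unnormalized read counts, with 24421 gene symbols in 32 libraries. Tools listed in the submitters' processing notes are featureCounts, HISAT2 2.1.0, Trimmomatic 0.33, FastQC and edgeR, with the build mm10. The annotation and the strand setting are not given in the sources used here, and 27 symbols are date-like.

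Counts of the 8 C57BL/6 CN3 and CN6 libraries were fitted with edgeR 4.0.16 in R 4.3.3 (filterByExpr, TMM scaling, robust quasi-likelihood F test, Benjamini-Hochberg adjustment over all genes tested). CPM is relative to the deposited totals. Standard errors were derived from the F statistic. The script was tested on simulated data. Positions and exon lengths came from GENCODE vM21 for 95.4% of symbols.

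The members, the 37 gene lists and the naming rule were chosen with earlier results of these data known. Named genes are Hoxb3, Otx2, Chat, the 12 largest called differences per direction (mean CPM of at least 1, no overlap, no model-number symbols), up to 4 genes per list with the smallest adjusted p, the 2 highest of each list as a level, and any member of 5 lists (Hox, cholinergic, motor neuron factors, midbrain and forebrain factors, Edinger-Westphal). Some genes that the rule names are not reported here. The main fit did not pair samples by replicate number. Alternatives were DESeq2 size factors, upper quartile factors, no filter, a CPM filter, the DESeq2 1.42.0 Wald test, limma voom 3.58.1 with quality weights, a replicate block, the motor neuron covariate and leaving out each library.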

Additional observations from a re-analysis of the deposited data

Results flagged for a closer look

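Among the genes named here, each group of 4 libraries was searched for a highest or lowest library whose gap to the next is, as a share of the group's whole range, above Dixon's 95% critical value. Of 202 groups, 22 held such a library. Chance flags about 1 in 20 groups of normally distributed values, which groups resting on a few counts are not. No excess over chance can therefore be read from this number.

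Several rest on a few counts. Hoxa3, Hoxb2, Hoxd4 and Uts2b each read 0.0452 CPM in CN3 replicate 2 and 0 in the other 3. Tbx20 read 0.13 CPM in CN3 replicate 1 and 0 in the others, and Lhx4 read 0.261 CPM there against at most 0.0678. Pax8 read 0.701 CPM in CN3 replicate 2 against at most 0.118.

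Others rest on many counts. In CN3 replicate 1, Prkcd read 298 CPM against 11 to 14.4 and Slc17a7 read 54.0 CPM against 3.44 to 4.70. In CN3 replicate 2, Slc6a5 read 5.63 CPM against 0.318 to 0.794, Slc6a9 250 CPM against 207 to 210, and Scn4b 459 CPM against 307 to 321. In CN3 replicate 3, Tph2 read 3.23 CPM against 0.859 to 1.11, while Glrb was low at 303 CPM against 373 to 386.

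In CN6 replicate 2, Gh read 280 CPM against 6.75 to 11.7, Prl 59.4 CPM against 0.64 to 1.97, and Slc17a8 7.54 CPM against 4.16 to 4.52, while Slc6a5 was low at 121 CPM against 149 to 153. In CN6 replicate 1, Gad1 was low at 292 CPM against 366 to 371 and Slc6a9 high at 326 CPM against 278 to 281. Meis2 was low in CN6 replicate 3 at 192 CPM against 203 to 205. CN6 replicate 4 was high for Uts2b, at 1.61 CPM against 1.18 to 1.22. The sources of these differences were not tested.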

How the results depend on the processing

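The count of called genes was 4255 with DESeq2 size factors, 4198 with upper quartile factors, 4083 without a filter, 4137 with the CPM filter, 4908 with DESeq2 and 4664 with limma voom. Leaving out 1 library gave 2819 to 4744, with 1355 to 2453 higher in CN3 and 1463 to 2291 higher in CN6, each lowest without CN6 replicate 4 or 3. The CPM filter left 4 called motor neuron factors because fewer genes were tested. Deviations of same-numbered samples from their group means correlated weakly (0.015, −0.18, 0.14 and 0.041). The labels do not say whether such samples share a mouse, and these values cannot settle it. With a replicate block, 3462 genes were called, 1684 higher in CN3 and 1778 in CN6, and CN3 replicates 3 and 4 but not 1 and 2 correlated best with their own number. Of the genes named here that were called without the block, Cartpt alone lost its call with it (adjusted p = 0.0708, edgeR).

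With the motor neuron covariate, 1 gene was called, 0 higher in CN3 and 1 higher in CN6, and 0 members of the Hox, midbrain and forebrain, cholinergic and both motor neuron lists. Log2 fold changes were −8.33 for Hoxb3 and −1.11 for Chat, no longer called. Estimates changed sign for Otx2 (−0.20), Pknox2 (−0.67), Pax7 (−4.05), Lhx2 (−0.25), Lef1 (−2.62), Pou4f1 (−1.14) and Barhl2 (−1.38), which became negative. They became positive for Hoxd1 (1.82), Pknox1 (0.020), Lbx1 (0.46), Slc5a7 (0.71), Isl1 (2.21), Nefl (0.11), Glrb (0.21), Slc6a9 (0.14), Kcna1 (0.69), Scn4b (0.44), Pvalb (0.21) and S100b (0.52). The cause was not tested. Prkcd ran from −0.50 without CN3 replicate 1 to 2.59 without CN3 replicate 2.

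Depth limits genes under about 0.2 CPM, which rest on a few counts that come largely in pairs.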

Other observations

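Some vessel and fibroblast genes were higher in CN6, where 13.4% of all tested genes were higher. Of 10 endothelium and pericyte genes, 4 were higher in CN6 and 0 in CN3, with Flt1, a receptor of vessel growth factors, at 84.3 to 105 CPM in CN6 and 70.9 to 80.7 CPM in CN3. Of 8 meninges and fibroblast genes, 4 were higher in CN6 and 0 in CN3, with the collagen gene Col1a2 at 25.5, 37.1, 28.5 and 26 CPM in CN6 and 10.5, 12, 14 and 13 CPM in CN3 (−1.28 ± 0.12, adjusted p = 4.53e-05, edgeR). Of 11 cerebellum genes tested, 3 were higher in CN3 and 4 in CN6, and Itpr1, a calcium channel of Purkinje cells and other neurons, was among the former at 191 to 227 against 114 to 126 CPM. The dopamine receptor gene Drd1 was low in both groups and higher in CN3 (2.42 to 3.75 against 0.480 to 0.969 CPM). The Y-linked gene Eif2s3y was read in all 8 libraries, at 33.1 to 41.8 CPM in CN3 and 37 to 40.3 CPM in CN6.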
